A study of Mus musculus with 13 samples.

Results

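The nuclear genes of oxidative phosphorylation were followed in mouse cerebellum through the first postnatal month and after loss of Sam68. They were taken by name from the authors' expression table: every symbol that begins with Nduf, Uqcr or Atp5, every symbol that begins with Cox and a digit from 4 to 8, and Sdha, Sdhb, Sdhc, Sdhd and Cycs. The rule found 92 of the 21553 genes that had values. By their known roles, 7 were core subunits of complex I, 29 were accessory subunits of complex I and 4 were complex I assembly factors. Complex II had 4 genes, complex III had 8, complex IV had 20 (Ndufa4 and Ndufa4l2 included), complex V had 15 and cytochrome c had 1. The other 4 were taken by the naming rule but placed in none of these classes. Cox4nb belongs to a complex of the endoplasmic reticulum membrane and Atp5l-ps1 is annotated as a pseudogene. Atp5s and Atp5sl are not counted here among the ATP synthase subunits or the assembly factors, whatever their roles.

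The data were 13 RNA-seq libraries made from total RNA of cerebella, all from mice on the C57BL/6 background. Wild type cerebella were taken at postnatal day 1 (P1, libraries 8 and 9), day 10 (P10, libraries 5 and 6) and day 30 (P30, libraries 1, 2 and 3). Sam68 knockout cerebella were taken at P1 (libraries 13, 14 and 15) and at P10 (libraries 10, 11 and 12), and no knockout at P30 was analysed here. The design allowed 3 age comparisons in the wild type, 1 in the knockout, the comparison of genotypes at P1 and at P10, and the difference between the genotypes in their change from P1 to P10. Nothing in the labels tells whether replicate libraries are separate animals, pools or repeat preparations, so p-values measure only the spread between libraries, which may be technical. The labels also do not say how the knockout allele was made.

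Complexes I and II pass electrons to ubiquinone, complex III passes them on to cytochrome c, and complex IV hands them to oxygen. Complexes I, III and IV pump protons as they do so, and complex V, the ATP synthase, makes ATP from the returning protons. A small set of subunits is encoded in mitochondrial DNA, and the genes described here are nuclear. In the same weeks after birth the rodent cerebellum multiplies and then settles its granule neurons, its Purkinje cells grow their dendrites, and its axons are myelinated. Sam68, an RNA-binding protein encoded by Khdrbs1, regulates alternative splicing in neurons.

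The expression unit was cRPKM, an RPKM in which transcript length is replaced by its mappable length. Khdrbs1, the targeted gene, stood at 56.5 and 74.4 cRPKM in wild type P1, 61.2 and 56.2 in wild type P10 and 31.4, 29.5 and 36.8 in wild type P30. The knockout libraries held 5.42, 4.22 and 8.5 at P1 and 2.06, 1.28 and 3.59 at P10, all below every wild type library. The depth behind the expression table was very uneven. From the size of the smallest steps between low values, it was estimated at 0.0931 to 3.97 M reads per library, a 42.6-fold range, although only 37.9% of 6769 genes gave whole multiples within 0.06 read. The shallow libraries, under 0.5 M reads, were wild type P10 library 5, knockout P1 libraries 13 and 15, and knockout P10 libraries 11 and 12. In knockout P1 library 15, 1 read on a transcript of 1 kilobase was worth 10.7 cRPKM, against 0.252 cRPKM in wild type P30 library 2. Of the 92 genes, 15 were listed at 0 in knockout P1 library 15 and 3 to 8 in the other libraries. For this reason each comparison of the 92 genes is also given on reads that cross exon junctions, summed per gene from the splicing table and scaled to the library total (junction CPM). That table held 17.6 to 29.7 M such reads per library and covered introns of 76 of the 92 genes. The depth estimated for the expression table lay far below this in every library, and the labels give no reason. The word shallow refers here to the expression table alone. Markers of cerebellar cells moved with age: the summed level of 7 Purkinje cell markers was 141.1 to 384.6 cRPKM at P1, 930.3 to 1301.2 at P10 and 1668.5 to 2001.1 at P30. Markers of other tissue were also present, with a choroid plexus sum from 1.8 to 1125.9 cRPKM and a midbrain and hindbrain sum of 22 and 16 in wild type P1 against 0 to 11.1 elsewhere.

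The genes covered a wide range of levels. As a mean of the 5 group means, 41 of the 92 genes exceeded 100 cRPKM and 10 stayed under 5 cRPKM. Cox8a, a small subunit of complex IV, headed the list at 975 cRPKM, followed by Atp5b, the catalytic beta subunit of ATP synthase, at 870.2 and Cox6a1 at 652. At the bottom stood isoforms best known from other tissues: Cox7a1 at 2.26, Cox6b2 at 2.11, Cox4i2 at 1.62, Cox6a2 at 1.42 and Cox7b2 at 0.22 cRPKM. Cox8b, Cox8c and Atp5l-ps1 were listed at 0 in every library. Of the 92 genes, 88 had a mean of at least 1 cRPKM in some group and entered the test. The 4 that did not were Cox7b2 and the 3 listed at 0.

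**Figure D1:**
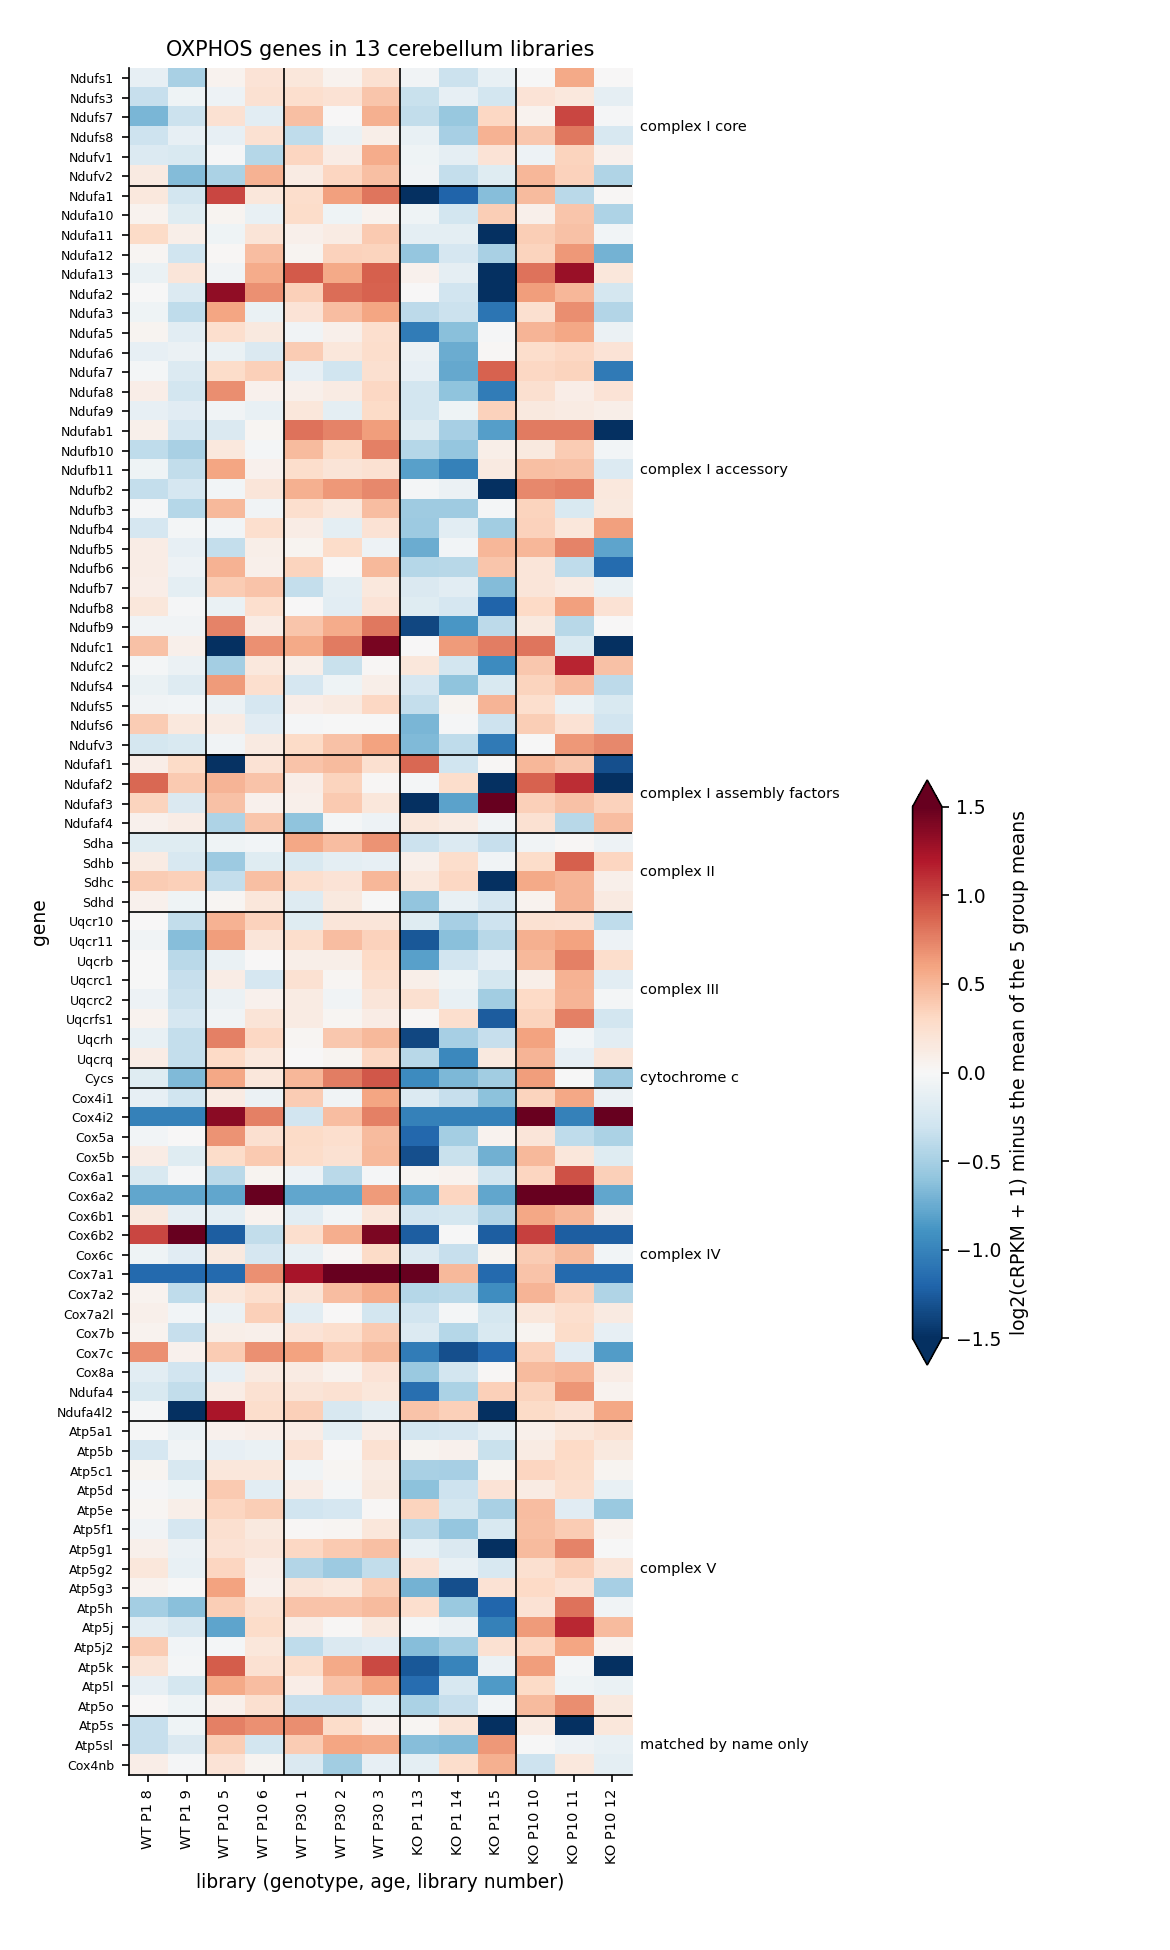
Heat map of 87 of the 88 tested genes (rows, ordered by complex) in the 13 libraries (columns, by genotype and age). Colour gives log2(cRPKM + 1) minus the mean of the 5 group means, with red above and blue below, and the scale ends at -1.5 and 1.5. The knockout P1 columns are the bluest on average, as their mean levels of 5.49 to 5.72 give, and isolated dark cells sit in knockout P1 library 15 and in low genes. Knockout P1 libraries 13 and 15 are shallow.

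As a group, these genes took a smaller share of the transcriptome at P1 than later, and on cRPKM the smallest in the knockout at P1. Their summed cRPKM was 1.97 and 1.89% of all genes in wild type P1, and 1.61, 1.63 and 1.83% in knockout P1. It was 2.50 and 2.25% in wild type P10, 2.53, 2.88 and 2.04% in knockout P10, and 2.4, 2.22 and 2.57% in wild type P30. The P1 libraries of both genotypes thus lay below every P10 and P30 library. On junction reads the share was 1.49 and 1.33% in wild type P1 against 1.55 and 1.58% in wild type P10. It was 1.69, 1.62 and 1.86% in wild type P30, 1.32, 1.29 and 1.36% in knockout P1 and 1.80, 1.98 and 1.57% in knockout P10. Again no P1 library reached a P10 or P30 library, while the P1 libraries of the 2 genotypes overlapped. Because tissue was sequenced in bulk, fewer cells of a type and less RNA per cell cannot be told apart in any of these values.

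**Figure D2:**
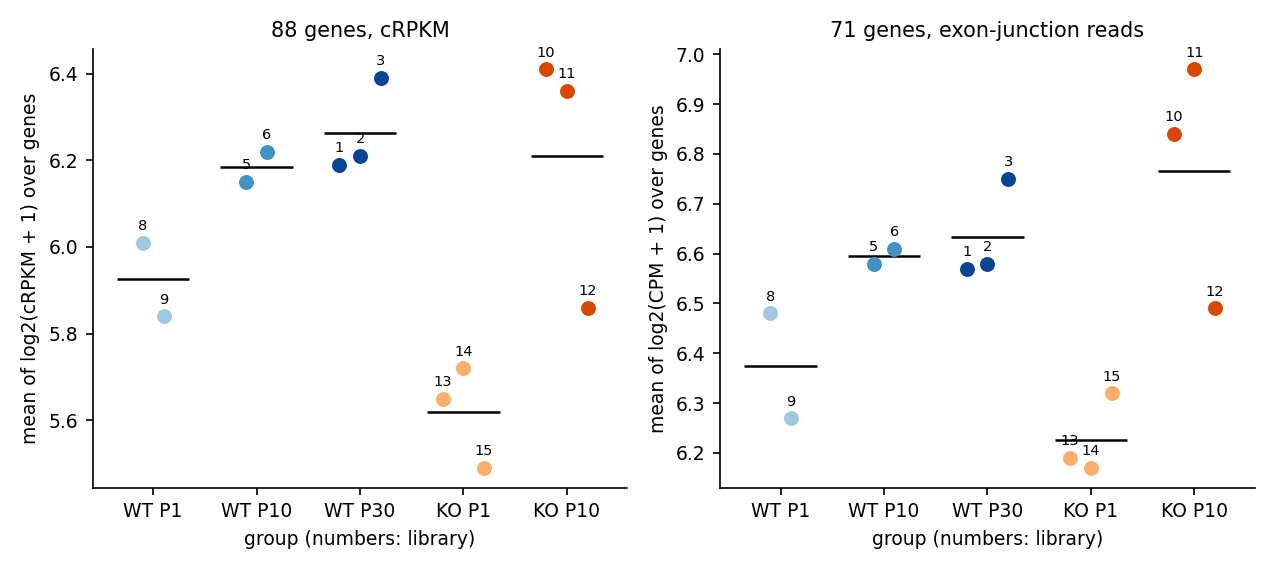
Mean level of the subunit genes in each library: left, the mean of log2(cRPKM + 1) over 88 genes; right, the mean of log2(junction CPM + 1) over 71 genes. Points are libraries and bars are group means. The knockout P1 libraries, of which 13 and 15 are shallow in the expression table, lie at 5.49 to 5.72 on the left. The wild type P1 libraries lie above them, at 5.84 and 6.01.

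From P1 to P10 the wild type showed a broad upward tendency without a single gene that passed the test on cRPKM. Differences were tested with limma on log2(cRPKM + 1) in 1 fit of the 5 groups, with Benjamini-Hochberg adjustment over all 14063 genes, and a gene with an adjusted p under 0.05 is named as called. None of the 88 genes was called by limma, while 4.05% of all genes were. Of the 88, 10 had an unadjusted p under 0.05, as did 2293 of all 14063 genes. The values of 68 of 88 were higher at P10, with a median log2 difference of 0.25 against 0.01 over all genes. On junction reads, where 71 of the genes were tested, limma called 6 as higher and 0 as lower, against 27.4% of all genes called, 13.1% as higher and 14.2% as lower. Leaving out knockout P10 library 11 gave 1 call on cRPKM. The junction count was less stable: it was 1 without wild type P1 library 9, 3 without wild type P10 library 5, 10 without knockout P10 library 11 and 16 without knockout P10 library 12.

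3 of those 6 genes were tissue isoforms of complex IV. Cox4i2, an isoform of subunit IV known from lung and from oxygen-regulated expression, stood at 1.31 and 1.02 junction CPM in wild type P1 and 2.73 and 2.83 in wild type P10. The groups did not overlap, and the rise was 0.81 ± 0.19 (log2 difference ± SE; limma adjusted p = 0.00448). It was called in all 13 fits that left out 1 library. Cox7a1, the subunit VIIa isoform of heart and skeletal muscle, went from 1.08 and 0.553 to 3.15 and 3.03 junction CPM, a rise of 1.19 ± 0.29 (limma adjusted p = 0.00714, and 0.0576 without wild type P1 library 9). Cox6a2, the muscle isoform of subunit VIa, went from 0.739 and 0.596 to 2.85 and 4.95 junction CPM, a rise of 1.52 ± 0.42 (limma adjusted p = 0.0134, but 0.0557 without wild type P1 library 9 and 0.13 without wild type P10 library 6). These are small numbers of reads: Cox6a2 rested on 13 and 14 junction reads at P1 and on 75 and 147 at P10. The other called genes were Uqcrh, the hinge protein of complex III (0.67 ± 0.23, adjusted p = 0.0426 by limma), the ATP synthase subunit Atp5j (0.48, adjusted p = 0.0381) and the complex I accessory subunit Ndufs4 (0.48, adjusted p = 0.0391). For Atp5j cRPKM had the opposite sign, -0.06 (limma adjusted p = 0.973), with libraries that overlapped. Without wild type P1 library 9 these had adjusted p of 0.217, 0.157 and 0.209, and without wild type P10 library 5 they had 0.247, 0.0679 and 0.137. Leaving out wild type P10 library 6 gave 0.0547, 0.19 and 0.109, and further single libraries brought Uqcrh and Atp5j to between 0.05 and 0.0703.

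Between P10 and P30 the wild type changed few of these genes, and they did not move in 1 direction. On cRPKM 1 gene rose and 1 fell by limma, where 14.7% of all genes were called (5.02% up and 9.73% down). Of the 88 genes, 7 had an unadjusted p under 0.05, as did 3857 of all 14063 genes. In this comparison, and in P30 against P1, the median over all genes was itself negative, -0.13 on the log2 scale as deposited. Rescaling the libraries to equal medians brought it to 0.03 and quantile normalization to 0. The number of subunit genes with higher values at P30 moved with that shift, from 49 of 88 as deposited to 70 after rescaling and 57 after quantile normalization. The calls were 1 up and 1 down as deposited, 3 up and 0 down after rescaling, and 2 up and 1 down after quantile normalization. Over all genes, 1040 were up and 959 down of 14053 after rescaling. After quantile normalization 923 were up and 1107 down of 13880. Relative to the shift, the subunit genes had a median of 0.02 against -0.13 over all genes. On junction reads 10 rose and 3 fell of 71, against 48.3% of all genes called (17% up and 31.4% down), with a median of -0.01 against -0.18. The junction count was 4 without wild type P10 library 6 and 8 without wild type P30 library 3, and the cRPKM count was 1 without wild type P10 library 5 and 1 without wild type P30 library 2.

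Sdha (ENSMUSG00000021577), the flavoprotein that carries the catalytic site of succinate dehydrogenase, was the only one of these genes whose calls on cRPKM against both P10 and P1 held in all 13 fits that left out 1 library. It stood at 135 and 135 cRPKM in wild type P1, 148 and 149 in wild type P10, and 229.8, 212 and 245 in wild type P30. In the knockout it stood at 123, 134 and 121 at P1 and at 148, 156 and 146 at P10. The wild type P30 libraries were higher than every other library, and the P1 and P10 libraries lay close together in both genotypes. From P10 to P30 Sdha rose 1.54-fold (log2 0.62 ± 0.11, limma adjusted p = 0.00332), and from P1 to P30 it rose 1.69-fold (0.75 ± 0.11, adjusted p = 0.000424). Leaving out 1 library at a time kept the adjusted p of the P10 to P30 rise between 0.00276 and 0.0198. On junction reads the level went from 737 and 735 CPM at P1 to 772 and 796 at P10 and to 1264, 1188 and 1364 at P30. The other subunits of the same complex behaved differently: the differences from P1 to P30 were -0.10 for the iron-sulfur subunit Sdhb, -0.05 for Sdhc and -0.01 for Sdhd, none of them called (limma adjusted p = 0.775, 0.984 and 0.972). Whether Sdha differed from them was not tested.

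The other genes that rose from P10 to P30 on junction reads in all 13 fits that left out 1 library were the complex I core subunits Ndufs7 and Ndufv1, and Atp5sl. Ndufs7, which holds an iron-sulfur cluster next to the ubiquinone site, stood at 62.9 and 61.4 junction CPM at P10 and 105, 93.9 and 121 at P30, a rise of 0.76 ± 0.17 (limma adjusted p = 0.00162). Ndufv1, the subunit that binds NADH, stood at 115 and 116 at P10 and 170.3, 143 and 182 at P30, a rise of 0.51 ± 0.13 (limma adjusted p = 0.00586). On cRPKM the differences were 0.30 for Ndufs7 and 0.56 for Ndufv1, not called (limma adjusted p = 0.639 and 0.0805).

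Atp5g2 fell from P10 to P30. The c subunit, which forms the rotating ring of ATP synthase, is encoded by Atp5g1, Atp5g2 and Atp5g3, whose mature proteins are the same. Atp5g2 stood at 101 and 82.9 cRPKM in wild type P1, 112 and 96.5 in wild type P10, and 66.1, 61.1 and 69.2 in wild type P30. The P30 libraries were lower than every other library, the knockout libraries at 75.7 to 115 included. The fall was -0.66 ± 0.16 from P10 to P30 (limma adjusted p = 0.0149) and -0.48 ± 0.16 from P1 to P30 (adjusted p = 0.0436). Neither call was stable. Against P10 the adjusted p was 0.116 without wild type P10 library 5, 0.0545 without wild type P30 library 2 and 0.11 after rescaling to equal medians. Against P1 it was 0.211 after rescaling and 0.0734 after quantile normalization. It was 0.283 without wild type P1 library 8, 0.0949, 0.127 and 0.0725 without wild type P30 libraries 1, 2 and 3, 0.0541 without knockout P1 library 14 and 0.0603 without knockout P10 library 10. Atp5g3, the most abundant of these genes, had differences of -0.10 and 0.21 in the same comparisons, and Atp5g1 had 0.18 and 0.39, none of them called. On junction reads Atp5o, a peripheral stalk subunit of the same enzyme, fell by 0.50 ± 0.15 from P10 to P30 (limma adjusted p = 0.0131, and 0.0768 without wild type P10 library 6).

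Over the whole span from P1 to P30 the wild type raised 7 of the 88 genes and lowered 1 by limma on cRPKM, a smaller share than the 25.4% called over all genes. Over all genes, 9.66% were called upward and 15.8% downward. The centre of the subunit genes lay above that of all genes: 70 of 88 had higher values at P30, with a median log2 difference of 0.30 against -0.13 over all genes. Of the 88, 19 had an unadjusted p under 0.05, as did 5047 of all 14063 genes. After rescaling to equal medians 15 rose and 0 fell, and after quantile normalization 16 rose and 0 fell. Over all genes, 1635 rose and 1798 fell of 14053 after rescaling. After quantile normalization 1653 rose and 1925 fell of 13880. On junction reads 26 rose and 3 fell of 71, against 61.1% of all genes called (23.1% up and 38% down), with a median of 0.29 against -0.18. The cRPKM count of 8 was 4 without wild type P1 library 8, 3 without wild type P1 library 9, and 4, 5 and 4 without wild type P30 libraries 1, 2 and 3. It was 5 without knockout P10 library 10 and 14 without knockout P1 library 15, since all groups share 1 estimate of the spread, and the junction count was 11 without wild type P1 library 9. The P30 comparisons share the P30 libraries, so their values are not independent of each other.

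The genes that rose came from several complexes. Cycs, cytochrome c, stood at 36.6 and 26.1 cRPKM in wild type P1, 63.1 and 47.3 in P10, and 59.2, 72.1 and 80.3 in P30. It rose 2.23-fold from P1 to P30 (1.15 ± 0.30, limma adjusted p = 0.0126, and 0.148 without wild type P1 library 9). Ndufb10, an accessory subunit of the membrane arm of complex I, went from 99.2 and 92.3 cRPKM at P1 to 181, 158 and 219 at P30 and rose 1.91-fold (0.94 ± 0.21, limma adjusted p = 0.00548, and 0.0568 without wild type P1 library 9). Ndufs3, a core subunit of complex I, went from 41.4 and 50.3 to 63.3, 61.6 and 70.9 cRPKM (0.50 ± 0.16, limma adjusted p = 0.0419). That call was lost without knockout P10 library 10 (0.051), wild type P30 libraries 1, 2 or 3 (0.0851, 0.0697 and 0.135) or wild type P1 library 8 (0.259). Atp5h, a peripheral stalk subunit of ATP synthase, went from 103 and 95.3 to 199, 198 and 206 cRPKM (1.01 ± 0.33, limma adjusted p = 0.0428). Its call was lost without wild type P1 libraries 8 or 9 (0.146 and 0.215), wild type P10 libraries 5 or 6 (0.0637 and 0.0628), any of the wild type P30 libraries (0.0888 to 0.1), knockout P1 library 14 (0.0539) or knockout P10 library 10 (0.0574). In each of these genes the P1 and P30 libraries did not overlap, but the genes were picked by calls in the same libraries.

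By complex, the rises on junction reads are to be read against the 23.1% of all genes that rose on that measure. All 7 core genes of complex I had higher cRPKM at P30 than at P1 in the wild type, with a median of 0.54, and on junction reads 5 of 6 rose. Of the accessory subunits of complex I, 24 of 29 had higher cRPKM (median 0.27), and 9 of 24 rose on junction reads, among them Ndufa13 (1.07, limma adjusted p = 3.37e-05) and Ndufb10 (0.59, adjusted p = 0.016). Without wild type P1 library 9 only Ndufa13 of these 9 was still called, and Ndufb10 had an adjusted p of 0.107 (0.0662 without wild type P30 library 3). Of the 5 core genes 4 were called in all 13 fits that left out 1 library. All 8 genes of complex III were higher, with a median of 0.31, but none was called on cRPKM and 1 of 6, Uqcrh, rose on junction reads (0.68 ± 0.21, limma adjusted p = 0.0119, and 0.124 without wild type P1 library 9). Uqcr11, the complex III gene with the smallest p on cRPKM, went from 102 and 67.6 to 127, 146 and 135 cRPKM (0.70 ± 0.28, limma adjusted p = 0.0891). Complex IV had a median of 0.37 on cRPKM and 0.09 on junction reads, where 5 of 13 rose and 1 fell. Complex V had medians of 0.21 and 0.23, and 3 of 11 rose on junction reads. Without wild type P1 library 9, 3 of the 6 calls in complex IV and 0 of the 3 in complex V remained. Without wild type P30 library 3, 4 of 6 and 1 of 3 remained, and 5 of the 9 accessory calls in complex I. The 4 complex I assembly factors, which help to build the enzyme and are not part of it, had a median of -0.08. One of them, Ndufaf3, rose on junction reads (0.79 ± 0.19, limma adjusted p = 0.00214). Another, Ndufaf4, fell, from 41.2 and 41.8 junction CPM at P1 to 29.2, 27.2 and 28.7 at P30 (-0.53 ± 0.18, limma adjusted p = 0.0199). That call was lost without wild type P1 library 8 (0.0668) or 9 (0.0789) or wild type P30 library 2 (0.0508). Of the genes placed in no class, Atp5sl rose (0.73 ± 0.18, limma adjusted p = 0.00232) and Cox4nb fell (-0.38 ± 0.13, adjusted p = 0.021, and 0.144 without wild type P1 library 9). No test compared the complexes with each other.

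Complex IV carries subunits that come in alternative isoforms, and the isoforms differed in level by orders of magnitude. Per length of transcript, Cox6a1 stood between 476 and 1229 cRPKM in the 13 libraries and its muscle counterpart Cox6a2 between 0 and 7.97. Cox4i1 stood between 232 and 539 and Cox4i2 between 0 and 4.88, Cox6b1 between 252 and 515 and the testis isoform Cox6b2 between 0 and 6.88, and Cox7a2 between 74.1 and 209 and Cox7a1 between 0 and 9.07. Cox7a1 was listed at 0 in both wild type P1 libraries, at 0 and 2.60 cRPKM in wild type P10 and at 4.29, 6.21 and 6.27 in wild type P30. Its rise from P1 to P30 on cRPKM was called (limma adjusted p = 0.0341) but lost without wild type P1 libraries 8 or 9 (0.146 and 0.161) or wild type P30 libraries 1, 2 or 3 (0.0633, 0.085 and 0.088). Junction reads gave counts for it in every library: 19 and 13 at P1, 83 and 90 at P10, and 155, 117 and 179 at P30. On that scale Cox7a1 rose from 1.08 and 0.553 CPM at P1 to 5.53, 5.05 and 6.89 at P30, by 1.91 ± 0.27 (limma adjusted p = 1.83e-05), and the call was kept in all 13 fits that left out 1 library.

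Cox6a2 rose and fell again. Its junction CPM was 0.739 and 0.596 in wild type P1, 2.85 and 4.95 in wild type P10, and 0.214, 0.043 and 1.81 in wild type P30. The fall from P10 to P30 was -1.65 ± 0.38 (limma adjusted p = 0.00242, and 0.0533 without wild type P10 library 6). Wild type P30 library 3, with 47 junction reads, stood well above libraries 1 and 2, with 6 and 1. On cRPKM the same comparison gave -0.71 ± 0.90 (limma adjusted p = 0.689), with 2 of 3 P30 libraries and 1 of 2 P10 libraries listed at 0. Cox4i2 stayed up at P30, at 2.50, 2.81 and 2.19 junction CPM, and was 0.69 ± 0.17 above P1 (limma adjusted p = 0.00248).

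Cox7a2l, a relative of subunit VIIa, fell on junction reads and not on cRPKM. It stood at 196 and 182 junction CPM in wild type P1, 118 and 178 in P10, and 104, 114 and 97.3 in P30. The fall from P1 to P30 was -0.84 ± 0.16 (limma adjusted p = 0.0004) and was called in all 13 fits that left out 1 library. On cRPKM the levels were 61.8 and 56.9 at P1 and 52.3, 58.6 and 48.0 at P30 and overlapped, with a difference of -0.17 ± 0.16 (limma adjusted p = 0.521). The cause of this gap between the measures was not tested. For the major isoforms Cox6a1 and Cox6b1 the difference from P1 to P30 was -0.04 and -0.02 on cRPKM as deposited, and its sign turned after rescaling, to 0.12 and 0.15. Among the remaining major isoforms, differences from P1 to P30 on cRPKM were 0.52 for Cox4i1, 0.57 for Cox7a2, 0.43 for Cox7b, 0.35 for Cox8a and 0.50 for Ndufa4, none of them called. On junction reads Cox4i1 (0.48, limma adjusted p = 0.0125), Cox7a2 (0.50, 0.0105) and Ndufa4 (0.43, 0.0223) rose. Without wild type P1 library 9 their adjusted p was 0.0669, 0.132 and 0.171, and without wild type P30 library 3 it was 0.0605 for Cox4i1 and 0.0721 for Ndufa4. Ndufa4l2, the paralogue of Ndufa4, stood between 0 and 6.20 cRPKM in the 13 libraries.

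**Figure D3:**
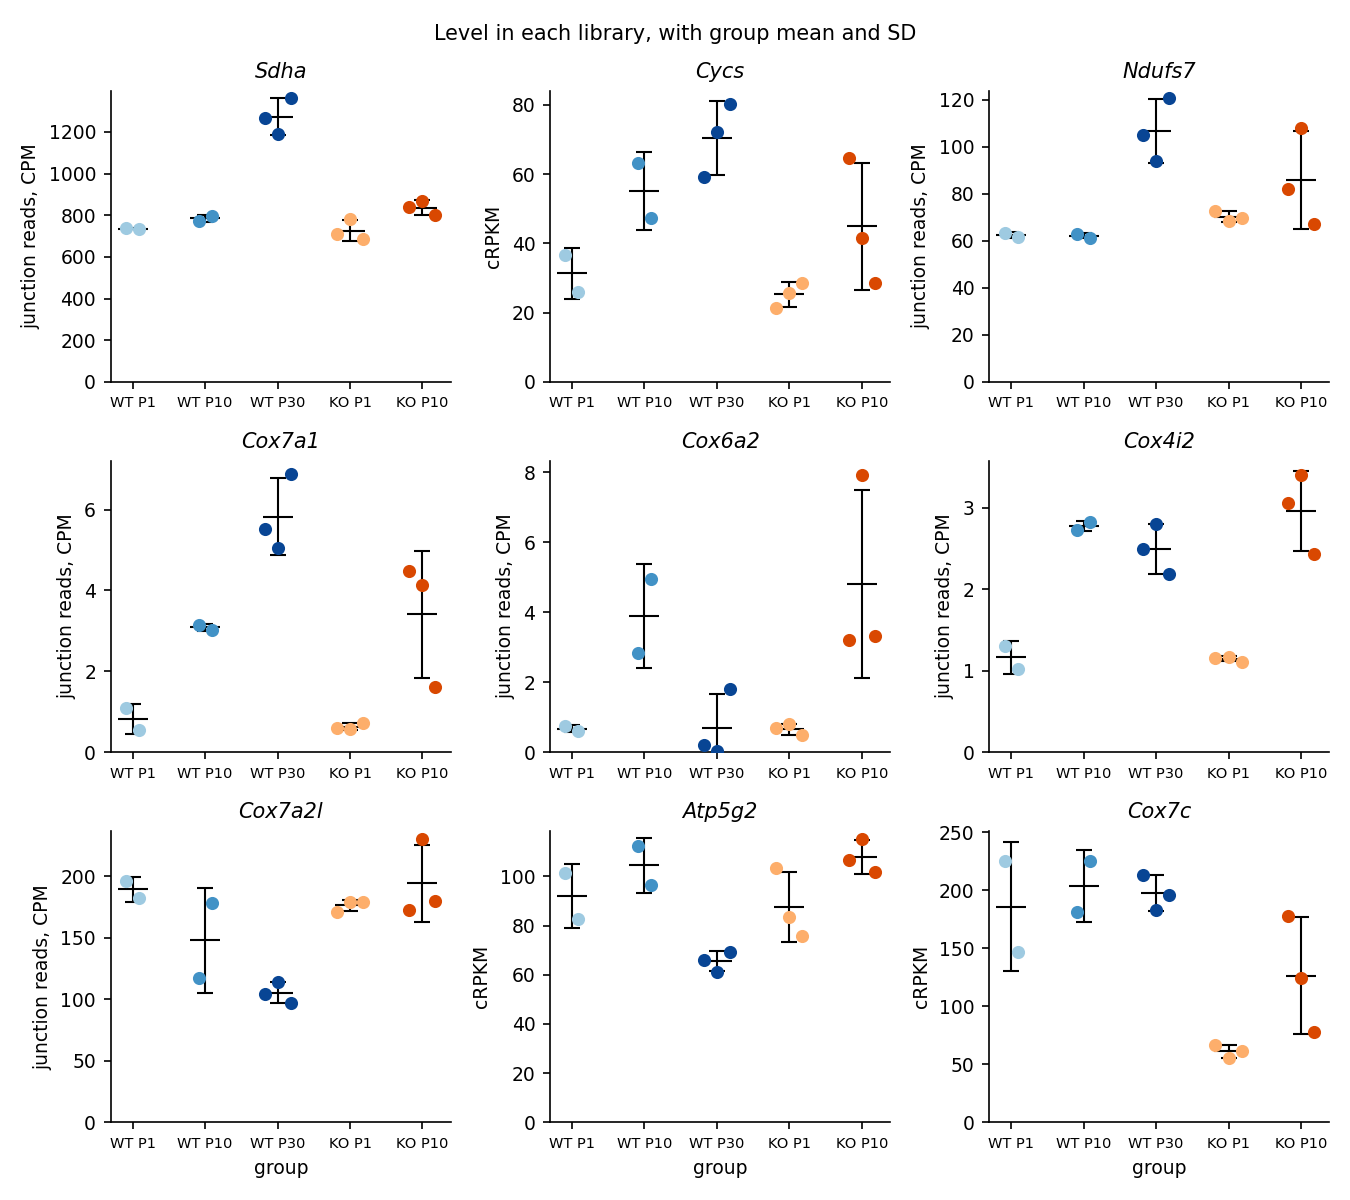
Levels of 9 genes by library in the 5 groups: junction CPM for Sdha, Ndufs7, Cox7a1, Cox6a2, Cox4i2 and Cox7a2l, and cRPKM for Cycs, Atp5g2 and Cox7c, each axis from 0. Points are libraries, bars the group mean with its SD (n = 2 or 3). Sdha is high only in wild type P30, and Cox7c is lowest in knockout P1. Cox6a2 peaks at P10 in the wild type and is higher at P10 than at P1 in the knockout.

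By the same threshold more of these genes were called between P1 and P10 in the knockout than in the wild type, although the difference itself was not called. The wild type groups held fewer libraries, so their standard errors were larger (0.17 against 0.14 for Atp5f1 on cRPKM). The 2 counts of calls are thus not on equal terms. Over all genes, too, fewer were called in the wild type, 4.05% on cRPKM and 27.4% on junction reads. On cRPKM 18 of 88 rose and 0 fell by limma, or 20.5%, against 10.2% of all genes called in either direction with 5.58% upward and 4.59% downward. The values of 81 of 88 were higher at P10, with a median of 0.55 against 0.04 over all genes. Of the 88, 49 had an unadjusted p under 0.05, as did 3686 of all 14063 genes. On junction reads 52 of 71 rose and 0 fell, or 73.2%, against 36.8% of all genes called (18% up and 18.8% down), with a median of 0.54 against 0.01 over all genes. This comparison shares no library with the wild type comparisons of age. The count on cRPKM depended on the fit: it was 5 without knockout P10 library 10 and 8 without knockout P10 library 11. It was 0 when the 6 knockout libraries were fitted alone, and no share over all genes is set beside that 0. Leaving out the 5 shallow libraries left 1 library in each knockout group. The median over these genes without the 5 shallow libraries was 0.69, with 84 of 88 higher. That value sets 1 library against 1, and no median over all genes is set beside it. It adds no separate evidence for the rise. The junction count was 32, 33 and 34 without knockout P10 libraries 10 and 11 and knockout P1 library 14.

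Among the genes called on cRPKM in all 13 fits that left out 1 library, Atp5f1, the b subunit of the ATP synthase stalk, stood at 155, 136 and 176 cRPKM in knockout P1 and 282, 267 and 212 in knockout P10, and rose 1.62-fold (0.70 ± 0.14, limma adjusted p = 0.00828). Uqcrb, a subunit of complex III, stood at 113, 164 and 184 against 280.2, 338 and 241 cRPKM and rose 1.88-fold (0.91 ± 0.19, limma adjusted p = 0.0108). None of these groups overlapped, and the same held for the accessory subunits of complex I Ndufb4 (1.72-fold, limma adjusted p = 0.0118) and Ndufv3 (2.23-fold, limma adjusted p = 0.00947). Ndufv3 went from 9.36, 11.5 and 6.85 to 15.3, 24.7 and 26.0 cRPKM, but on junction reads its libraries overlapped. A further 13 genes, not called in all of these fits, rose by 0.64 (Cox8a) to 1.15 (Ndufa1). All 13 calls were lost without knockout P10 library 10, with limma adjusted p from 0.0517 to 0.126. Of the 18 called genes only Ndufa5 had knockout P1 and P10 libraries that overlapped on cRPKM. The 18 were picked by small p in these same libraries, so the lack of overlap adds no separate evidence. The 13 genes not called in all of these fits included Uqcr11 (1.12), Atp5j (1.13), Ndufc2 (1.01), Cox7c (0.96), Cox5b (0.95), Ndufb8 (0.92) and Ndufa5 (0.90).

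On junction reads, where 18% of all genes rose, the rise ran through nearly every complex. All 11 complex V genes measured that way rose, as did 11 of 13 in complex IV, 19 of 24 accessory and 4 of 6 core genes of complex I and 4 of 6 in complex III. It was 1 of 4 in complex II, where Sdhd rose (0.41, limma adjusted p = 0.0256, but 0.122 and 0.0788 without knockout P1 libraries 13 and 14 and 0.102 without knockout P10 library 10) and Sdha (0.21), Sdhb (0.08) and Sdhc (0.00) were not called. It was 2 of 4 among the assembly factors and 0 of 3 among the genes placed in no class. Not all of the called genes had separate libraries: knockout P1 and P10 overlapped on junction reads for Atp5e, Atp5g3, Atp5k, Cox5a, Uqcr10, Uqcrq and Sdhd. The same held for Ndufa7, Ndufb7, Ndufb10, Ndufv3 and Ndufaf1. Of the 52 calls, 30 were kept in all 13 fits that left out 1 library: 5 of 11 in complex V, 7 of 11 in complex IV, 11 of 19 accessory and 4 of 4 core genes of complex I, 2 of 4 in complex III, 0 of 1 in complex II and 1 of 2 assembly factors. Complex V went to 5 calls without knockout P1 libraries 13 or 14 or knockout P10 library 10, and to 6 without knockout P10 library 11. Complex III went to 2 calls without any 1 of these 4 libraries. Complex IV went to 7 without knockout P1 library 14 or knockout P10 library 11, and the accessory genes of complex I to 12 without knockout P10 library 10 or 11. The low isoforms rose here too: Cox6a2 by 1.72 ± 0.34, Cox7a1 by 1.36 ± 0.24 and Cox4i2 by 0.88 ± 0.15 (limma adjusted p = 0.00114, 0.000452 and 0.000395). For Cox7a1 cRPKM pointed the other way, -1.13 ± 0.76 (limma adjusted p = 0.364), with 9.07 cRPKM in the shallow knockout P1 library 13 and 0 in 3 of the other 5 knockout libraries. Ndufa7, Ndufaf1 and Ndufc1, which rose on junction reads (0.52, 0.58 and 0.70, limma adjusted p = 0.0245, 0.0201 and 0.0196), also had negative differences on cRPKM, of -0.14, -0.33 and -1.15 and not called.

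The subunit genes are short, with a median of 1186 nucleotides for the longest GENCODE transcript against 3443 for all tested genes. In the knockout from P1 to P10 the median of other genes also varied with length: 0.09 up to 750 nucleotides, 0.27 from 750 to 1500, 0.14 from 1500 to 3000 and -0.03 above. The subunit genes in the same classes had medians of 0.72 (20 genes), 0.60 (35), 0.37 (22) and 0.47 (11). On junction reads the medians were 0.71, 0.56, 0.47 and 0.42 for the subunit genes against 0.35, 0.21, 0.10 and -0.07 for other genes.

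**Figure D4:**
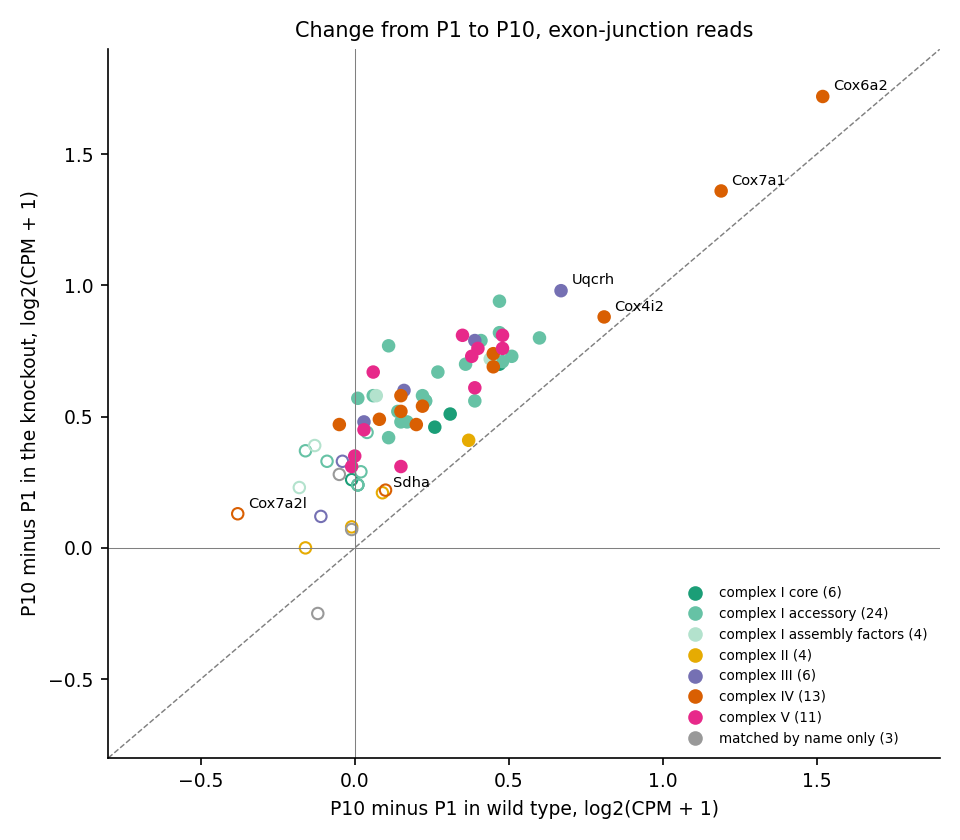
Change from P1 to P10 of the 71 genes measured on junction reads, as the difference of log2(junction CPM + 1): wild type on the horizontal axis, knockout on the vertical axis. Filled points are the 52 genes called in the knockout and the dashed line marks equal change; 70 of 71 points lie above it.

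The change from P1 to P10 was larger in the knockout for most genes, but no gene passed the test of that difference. By limma's interaction term 0 of 88 genes were called on cRPKM, where 0.0142% of all genes were. Of the 88, 9 had an unadjusted p under 0.05, as did 728 of all 14063 genes. On junction reads 0 of 71 were called, as were 0% of all genes. Of the 71, 6 had an unadjusted p under 0.05, as did 916 of all 12954 genes. The sign was positive for 69 of 88 genes on cRPKM (median 0.28 against 0.03 over all genes) and for 70 of 71 on junction reads (median 0.33 against 0.00). Other genes of like length had similar values on cRPKM. In the length classes up to 750, 750 to 1500 and 1500 to 3000 nucleotides the subunit genes had medians of 0.36, 0.30 and 0.16 and other genes 0.27, 0.37 and 0.16. Above 3000 nucleotides the medians were 0.38 and -0.07. On junction reads the medians in these 4 classes were 0.35, 0.31, 0.32 and 0.41 for the subunit genes and 0.32, 0.22, 0.12 and -0.11 for other genes. Smallest p-values on cRPKM belonged to Cox6b1 (0.77 ± 0.25), Cox6b2 (2.52 ± 0.99), Atp5j (1.19 ± 0.47), Ndufc2 (1.13 ± 0.45) and Uqcrb (0.74 ± 0.30), each with a limma adjusted p of 0.854. Library composition differed between these groups as well: the midbrain and hindbrain sum was 22 and 16 cRPKM in wild type P1 and 11.1, 2.3 and 0 in knockout P1, and its part in the result was not tested.

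Against wild type of the same age, none of these genes was called in the knockout. At P1 the values of 66 of 88 genes were lower in the knockout, with a median of -0.21 against -0.04 over all genes. Estimated depth on cRPKM was 0.341, 1.44 and 0.0931 M reads in knockout P1 libraries 13, 14 and 15. It was 1.56 and 1.13 M reads in wild type P1 libraries 8 and 9. Depth thus differed with genotype at this age, and its part in the cRPKM values was not tested. Limma called 0 of 88, where 0.0356% of all genes were called. Of the 88, 9 had an unadjusted p under 0.05, as did 953 of all 14063 genes. On junction reads 52 of 71 were lower, with a median of -0.14 against 0.04, and 0 were called (0.00772% of all genes). Of the 71, 11 had an unadjusted p under 0.05, as did 1235 of all 12954 genes. By length class, from short to long, the subunit genes had cRPKM medians of -0.24, -0.20, -0.20 and -0.32 at P1, and other genes -0.07, -0.16, -0.07 and -0.02. At P10 the values of 54 of 88 genes were higher in the knockout (median 0.07 against -0.03), and 0 were called (0.00711% of all genes). Of the 88, 8 had an unadjusted p under 0.05, as did 748 of all 14063 genes. On junction reads 56 of 71 were higher (median 0.17 against 0.02), and 0 were called (0.0154% of all genes). Of the 71, 16 had an unadjusted p under 0.05, as did 1888 of all 12954 genes. The count of calls on junction reads at P10 became 5 without knockout P10 library 12. In the 3 classes up to 3000 nucleotides, other genes at P10 had cRPKM medians of 0.00, 0.13 and 0.08, as high as or higher than the -0.23, 0.13 and 0.05 of the subunit genes. On junction reads the medians in those classes were 0.17, 0.21 and 0.15 for other genes and 0.02, 0.22 and 0.14 for the subunit genes. Above 3000 nucleotides the subunit genes stood at 0.12 on cRPKM and 0.31 on junction reads, and other genes at -0.09 and -0.08. The comparison at P1, the comparison at P10 and the difference in change between the genotypes share libraries, so their values are not independent.

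Cox7c, a small subunit of complex IV, had the smallest p of these genes at P1. It stood at 66.8, 55.4 and 61.1 cRPKM in knockout P1 against 225 and 146 in wild type P1. At P10 it stood at 178, 124 and 77.4 in the knockout against 182 and 225 in the wild type, and at P30 the wild type held 213, 183 and 196. At both ages the knockout libraries lay below the wild type libraries, without overlap. The difference was -1.56 ± 0.28 at P1 (limma adjusted p = 0.194) and -0.75 ± 0.28 at P10 (limma adjusted p = 0.884), so neither was called. Leaving out knockout P10 library 12, which is not part of the P1 comparison but enters the shared spread, gave an adjusted p of 0.0329 at P1. The cRPKM values rest on unlike depth. In knockout P1 libraries 13 and 15, 1 read on a transcript of 1 kilobase was worth 2.94 and 10.7 cRPKM. It was worth 0.64 and 0.889 cRPKM in wild type P1 libraries 8 and 9. Few reads thus lie behind Cox7c in library 15, and the gap between genotypes could not be checked, since Cox7c could not be measured on junction reads.

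The other genes with the smallest p at P1 were also lower in the knockout. Ndufa1, an accessory subunit of complex I encoded on the X chromosome, stood at 77.2, 95.1 and 141 cRPKM against 245 and 182 (-1.05 ± 0.32, limma adjusted p = 0.704; junction reads -0.61, adjusted p = 0.446). Ndufb9 stood at 52.2, 74.2 and 104 against 131 and 132 (-0.82 ± 0.28), and Cox5b at 195, 388 and 297 against 526 and 432 (-0.75 ± 0.26), both with a limma adjusted p of 0.704. Cox6b2 was near the detection limit, at 0, 1.35 and 0 against 3.71 and 6.88. At P10 the leading genes were mostly higher in the knockout. Sdhb stood at 96.1, 149 and 99.9 cRPKM in the knockout against 54.2 and 70.1 in the wild type (0.86 ± 0.20, limma adjusted p = 0.884), and on junction reads at 223, 276 and 236 against 175 and 182 CPM (0.45 ± 0.13, adjusted p = 0.251). Cox6a1 stood at 790.4, 1229 and 812 against 476 and 648 cRPKM (0.73 ± 0.22), Atp5j at 158, 224 and 142 against 58.1 and 123 (1.01 ± 0.33) and Ndufc2 at 127, 212 and 131 against 66.8 and 107 (0.84 ± 0.32), each with a limma adjusted p of 0.884. None of these groups overlapped, but the genes were picked by small p in the same libraries. Knockout P10 library 11, one of the shallow ones, was the highest in all 4 genes.

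The mitochondrial DNA itself contributes subunits to the same complexes, and 1 of their transcripts was called in the wild type. The 12 mitochondrially encoded genes in the table summed to between 148326 and 248896 cRPKM in the 13 libraries. None of the 12 was called from P1 to P30 by limma (median 0.38). From P10 to P30 mt-Nd2, a complex I subunit, rose by 0.89 ± 0.24 (limma adjusted p = 0.0288), from a mean of 4868 to 8979.7 cRPKM, 1 call of 12 where 14.7% of all genes were called. Among 12 nuclear respiratory chain genes that the naming rule leaves out, 1 was called from P1 to P30: Atpif1, the inhibitor of ATP synthase, fell from a mean of 326 to 165 cRPKM (-0.96 ± 0.23, limma adjusted p = 0.00921). On junction reads 2 of 11 of these genes rose and 2 fell, Atpif1 among the latter (-0.88, limma adjusted p = 0.00106), and in the knockout from P1 to P10 7 of 11 rose, against 1 of 12 on cRPKM. Of 19 tested assembly factors of complexes II to V, Tmem70, which serves ATP synthase, rose (0.99 ± 0.31, adjusted p = 0.0345), but was not called on junction reads (0.37, adjusted p = 0.168), where 4 of 18 factors rose and 3 fell. These single calls on cRPKM stand below the 25.4% of all genes called from P1 to P30. On junction reads 23.1% of all genes rose and 38% fell from P1 to P30. In the knockout from P1 to P10, 18% of all genes rose on junction reads and 5.58% on cRPKM.

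Genes that feed the respiratory chain also changed with age. Their counts are to be read against all genes, of which 9.66% rose and 15.8% fell on cRPKM from P1 to P30, and 23.1% rose and 38% fell on junction reads. From P1 to P30 in the wild type, 8 of 23 genes of the TCA cycle and pyruvate entry rose and 1 fell on cRPKM, with a median of 0.48, and 11 rose and 5 fell on junction reads, with a median of 0.49. Mdh1, cytosolic malate dehydrogenase, rose 2.23-fold (limma adjusted p = 0.0006), Pdk2, a kinase that restrains pyruvate dehydrogenase, 5.52-fold (adjusted p = 0.00105) and Idh3g, a subunit of isocitrate dehydrogenase, 1.75-fold (adjusted p = 0.00175). Of 21 genes of glycolysis and lactate metabolism 7 rose and 1 fell on cRPKM, with a median of 0.61, and of 17 on junction reads 11 rose and 2 fell. Pfkm, the muscle type phosphofructokinase, rose 3.47-fold, Aldoc, an aldolase of astrocytes and Purkinje cells, 6.98-fold and the neuronal enolase Eno2 6.89-fold (limma adjusted p = 5.26e-05, 0.000181 and 0.000358). Of 16 regulators of mitochondrial biogenesis 2 rose and 3 fell on cRPKM, shares near those of all genes, and of 15 on junction reads 3 rose and 7 fell. Esrra, a nuclear receptor that acts on oxidative phosphorylation genes, rose from a mean of 4.96 to 15.2 cRPKM (1.54 ± 0.32, limma adjusted p = 0.00384), while its relatives Esrrb (-1.82 ± 0.37, adjusted p = 0.0033) and Esrrg (-0.96 ± 0.24, adjusted p = 0.0106) fell. Of 19 genes of mitochondrial import and cristae 0 rose and 2 fell on cRPKM, Timm50 (-0.77) and Tomm22 (-0.78), and of 16 on junction reads 3 rose and 5 fell; both shares of calls lay below those of all genes. In the knockout from P1 to P10 the TCA list had 6 up and 1 down on cRPKM (12 and 2 on junction reads), glycolysis 5 up and 1 down (7 and 1), the regulators 0 up and 2 down (1 and 4) and import and cristae 1 up and 0 down (2 and 2), where 5.58% of all genes rose and 4.59% fell on cRPKM and 18% and 18.8% on junction reads. In the knockout comparisons at P1 and P10 none of these lists had a call on either measure.

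Cell type markers moved with age beside all of these values. From P1 to P30, 7 of 7 Purkinje cell markers, 8 of 10 granule neuron markers and 6 of 8 astrocyte and Bergmann glia markers rose. 1 astrocyte marker fell, as did 4 of 6 markers of the meninges, 4 of 5 of the midbrain and caudal hindbrain and 7 of 9 granule cell precursor markers, the last to sums of 57.6 to 71.3 cRPKM at P30 against 175.8 to 405.4 at P1 and P10. Of 9 oligodendrocyte lineage markers 6 rose and 2 fell, with sums of 102.6 to 184.6 cRPKM at P1, 1557.5 to 2914.0 at P10 and 3703.9 to 4613.0 at P30. The part of these changes in cell content in the subunit genes was not tested.

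Splicing of the subunit genes was also measured. The percentage of transcripts that include a segment (PSI) could be tested for 85 events in 43 of the genes, and an event was called at an adjusted p under 0.05 with a difference of at least 10 points. The 1 called event was an exon of 116 nucleotides in Ndufa6, an accessory subunit of complex I (mm9 chr15:82181409-82181524). Its PSI was 90.9 and 90.5 in wild type P1, 79.1 and 75.7 in wild type P10, and 90.7, 90.2 and 90.5 in wild type P30. In the knockout it was 91.7, 93.5 and 90 at P1 and 87.3, 89.9 and 86.4 at P10. Both wild type P10 libraries lay below all other 11 libraries. The change from P1 to P10 was -13.3 points (limma on the log2 odds, adjusted p = 0.00822), and it was the 1 call among 74 tested events of these genes, where 0.636% of all events were called. The rise from P10 to P30 was 13.1 points (limma adjusted p = 0.00169), the 1 call among 81, where 2.92% of all events were called. The first call was lost without wild type P1 library 8 (adjusted p = 0.078) or wild type P10 library 6 (0.0799).

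**Figure D5:**
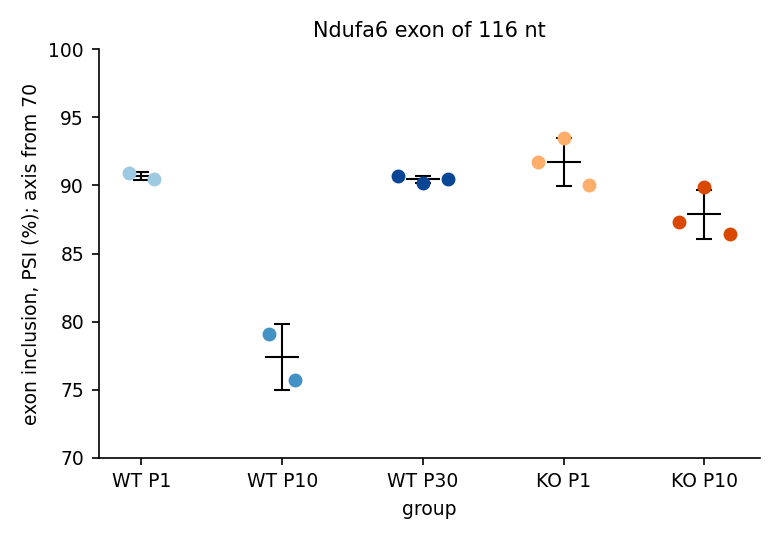
Inclusion of the Ndufa6 exon of 116 nucleotides, as PSI in percent, by library in the 5 groups; the vertical axis starts at 70. Points are libraries and bars the group mean with its SD (n = 2 or 3); wild type P10 stands at 75.7 and 79.1, and the other libraries lie between 86.4 and 93.5.

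In the knockout the Ndufa6 exon differed by -3.9 points from P1 to P10 (limma adjusted p = 0.184). The knockout was 10.5 points above wild type at P10 (limma adjusted p = 0.229), and the difference in change between the genotypes was 9.4 points (limma adjusted p = 1). So the dip was not shown to be confined to the wild type. No event of these genes was called by limma in the other comparisons, against 9.91% of all events from P1 to P30 in the wild type, 0.839% in the knockout from P1 to P10, 0.0238% between genotypes at P1, 0.0304% at P10 and 0% for the interaction. Events with an unadjusted p under 0.05 numbered 15 of 73, 10 of 77, 6 of 74, 4 of 82 and 3 of 74. Over all events they numbered 9871 of 35550, 4397 of 39094, 1720 of 37820, 1756 of 39479 and 925 of 36327. An exon of 104 nucleotides in Ndufs1, the largest core subunit of complex I, had a small adjusted p but moved by less than 10 points. Its PSI was 12.1 and 11.8 in wild type P1, 12.6 and 15.4 in wild type P10 and 6.5, 6.3 and 5.0 in wild type P30, a difference of -8.1 from P10 to P30 (limma adjusted p = 0.0265) and of -6.1 from P1 to P30 (adjusted p = 0.0304).

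Upstream sequence was available for 75 of the 92 genes in the RefSeq promoter table of the mouse assembly GRCm38.p6. Windows ran from 250 bases before the start of transcription to 50 after it, and both strands were searched for 5 motifs named for factors linked to respiratory genes. A gene counted as a match if any of its windows held the motif, so genes with several windows had more chances. The NRF1 motif, spelled GCGCA, any base, GCGC, was found in 18 of the 75 genes (24%). It was found in 10.9% of 10891 tested genes and 5.19% of all 27025 genes with windows. The YY1 motif, spelled AA, any base, ATGGCGG, was found in 7 (9.33%, against 3.47% of tested genes), the CRE motif TGACGTCA in 5 (6.67%, against 3.46%) and the ERR motif TNAAGGTCA in 3 (4%, against 0.918%). The ETS motif CCGGAAGT was found in 5 (6.67%, against 8.32%). The members were chosen by name and these shares have no test. A match is only a run of letters, and none says whether a factor binds.

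To show what such windows look like, the 250 bases before the start are printed for Sdha and Cycs, whose levels rose with age in the wild type, and for Cox7a1, the low isoform that rose on both measures. Sequences are from RefSeq, GRCm38.p6, 5′ to 3′ on the strand of the gene, with motif matches in capitals. Sdha lies on the minus strand at chr13:74350241-74350490 and holds 3 NRF1 matches, which begin 98, 55 and 10 bases before the start. Cycs lies on the minus strand at chr6:50566570-50566819 and holds 1 CRE match, which begins 169 bases before the start. Cox7a1 lies on the plus strand at chr7:30183921-30184170, and none of the 5 motifs was found in it.
Sdha: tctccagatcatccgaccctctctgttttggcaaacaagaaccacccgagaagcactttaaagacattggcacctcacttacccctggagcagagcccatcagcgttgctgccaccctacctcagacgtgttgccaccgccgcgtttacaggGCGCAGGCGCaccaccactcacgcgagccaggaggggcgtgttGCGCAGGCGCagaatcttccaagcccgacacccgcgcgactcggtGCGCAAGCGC
Cycs: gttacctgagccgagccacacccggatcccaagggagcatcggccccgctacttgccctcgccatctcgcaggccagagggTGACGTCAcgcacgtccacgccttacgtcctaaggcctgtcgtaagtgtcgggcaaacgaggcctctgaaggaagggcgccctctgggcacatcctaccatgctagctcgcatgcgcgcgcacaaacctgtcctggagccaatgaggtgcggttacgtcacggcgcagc
Cox7a1: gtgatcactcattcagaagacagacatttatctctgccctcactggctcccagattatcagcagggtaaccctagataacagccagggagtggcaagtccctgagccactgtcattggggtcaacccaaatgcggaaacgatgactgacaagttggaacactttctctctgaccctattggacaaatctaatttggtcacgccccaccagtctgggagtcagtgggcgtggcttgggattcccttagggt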

How the data were processed

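RNA-seq of 13 cerebellum libraries was analysed from 2 deposited tables. FastQC, Trimmomatic and the build mm9 are named per the submitters' processing notes, and the aligner is not given in the sources used here. The authors deposited gene expression as cRPKM, an RPKM over mappable transcript length, and splicing as percent inclusion (PSI) with the reads behind it. Of 22667 genes, 1114 had no value. Many of the subunit genes have processed pseudogene copies, and how shared reads were counted is not given.

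Genes with a group mean of at least 1 cRPKM (14063) were tested with limma 3.58.1 (R 4.3.3, intensity trend) on log2(cRPKM + 1), in 1 fit of the 5 groups with 8 residual degrees of freedom. Fold changes are on that scale and understate the change of low genes. Junction reads were summed over introns of the splicing table and tested the same way as log2(CPM + 1) over 12954 genes. These reads and the reads behind PSI were used as deposited by the authors, in a text field and not as gene counts. Splicing used limma on log2 odds with 0.5 added to each side, at least 10 reads and a mean PSI of 5 to 95, with the trend taken on the mean log2 reads. Depth in the expression table was estimated from the steps between low values, with annotated transcript lengths for the absolute scale, and is approximate. The fits were tested on simulated data. Tables were handled with Python 3.11.15, pandas 2.3.3 and numpy 2.4.6, and figures drawn with matplotlib 3.10.9.

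The genes given library by library are, for each complex, the leading gene of P30 against P1, the paired isoforms, the 5 smallest p in each knockout comparison and the largest called changes with age, plus leading events and list genes. Genes singled out on junction reads, and Cox7a2l, Ndufs7 and Ndufv1 among them, were chosen after their values were seen. 1 tested gene is counted in the totals and not reported here by name. The members, the gene lists and the tests were chosen with earlier results of these data known. Alternatives covered pseudocounts, filters, scaling, the groups in the fit and single libraries; leaving out the 5 shallow libraries, and leaving out single libraries on junction reads, were added after seeing the data. Where 1 library was left in a group it was assumed to vary like the others.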

Additional observations from a re-analysis of the deposited data

How the results depend on the processing

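Of 19 calls of named genes, 539 values under other settings held the call in 411 cases, lost it in 128 and reversed it in 0. Counts of called subunit genes moved most. For wild type P10 against P1 the count was 0 as reported and 6 on junction reads. Over all genes it was 569 of 14063 as reported and 0 with the compared groups alone. For P30 against P10 the count of subunit genes was 2, then 5 with the compared groups alone and 13 on junction reads. For P30 against P1 it was 8, then 15 after rescaling to equal medians, 16 after quantile normalization, 28 with the compared groups alone and 29 on junction reads. Over all genes, 3575 of 14063 were called as reported, 3433 of 14053 after rescaling and 3578 of 13880 after quantile normalization. For the knockout from P1 to P10 the count of subunit genes was 18, then 0 with the compared groups alone and 52 on junction reads. The counts of 5, 28 and 0 with the compared groups alone have no share over all genes beside them. They are thus not results about these genes in particular. Splicing calls went to 0 for wild type P10 against P1 with a mean PSI from 1 to 99 and with the compared groups alone, and to 4 for P30 against P1 with the compared groups alone. Leaving out 1 library gave 0 to 1 calls for wild type P10 against P1 (1 to 16 on junction reads), 1 to 3 for P30 against P10 (4 to 15), 3 to 14 for P30 against P1 (11 to 30) and 5 to 24 for the knockout with age (32 to 58). It gave 0 to 1 for the knockout at P1 (0 to 0), 0 to 0 at P10 (0 to 5) and 0 to 0 for the interaction (0 to 0). For splicing it gave 0 to 1 for wild type P10 against P1, 1 to 3 for P30 against P10, 0 to 3 for P30 against P1, 0 to 1 for the knockout with age and 0 to 0 for the other comparisons. Between the measures, signs differed for 1 gene called on junction reads in the wild type from P1 to P10 (Atp5j) and for 4 in the knockout from P1 to P10 (Cox7a1, Ndufa7, Ndufaf1 and Ndufc1), and for no called member in the other comparisons. Among the named genes followed through all settings, signs turned for 5 isoforms from P1 to P30, none of them called on either measure. Cox6a1 went from -0.04 to 0.12 rescaled, 0.16 quantile normalized and 0.04 on junction reads, and Cox6b1 from -0.02 to 0.15, 0.18 and 0.05. Cox6a2 went from 0.47 to -0.13 and Ndufa4l2 from 0.82 to -0.36 on junction reads. With single libraries left out, on either measure, the values ran from -0.15 to 0.09 for Cox6a1, -0.57 to 0.71 for Cox6a2, -0.16 to 0.22 for Cox6b1, -0.14 to 0.63 for Cox7b and -0.41 to 1.62 for Ndufa4l2. The causes of these moves were not tested. The shallow libraries limit what can be seen in low genes on cRPKM, and groups of 2 or 3 libraries limit all comparisons. No paired analysis was possible because the numbers in the labels name libraries and no number occurs in more than 1 group.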
